A study of Mus musculus with 4 samples.

Results

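Mouse alpha-defensin genes, which carry symbols beginning with Defa, lie together on chromosome 8 and were measured copy by copy in RNA-seq counts of intestinal crypts. The copies were selected on position, name and counts. A row of the count table was taken when its GENCODE M21 symbol began with Defa, pseudogenes included, when it lay on chromosome 8 between 21 and 22 Mb of GRCm38, and when it had at least 10 counts summed over the 4 libraries. This rule found 29 genes among the 53845 rows of the table, 21 of them annotated as protein-coding and 8 as pseudogenes. The rule used summed counts, so levels and shares are given as a description. It used no difference between genotypes, but the family was taken up with earlier results of these data known, so the number of copies called is a description as well, and only the test of each copy in the fit over all genes is given as a test. The libraries came from crypts of C57BL/6 mice aged 6 to 8 weeks, with 2 libraries of wild-type (WT) and 2 of Vil-CREPTKO mice, and CREPT flox/flox mice carried villin-cre in the Vil-CREPTKO group. Villin-cre is active in the intestinal epithelium and targets exon 3 of Rprd1b, the gene for CREPT, in the crypt lineages, Paneth cells included. The study's methods describe crypt isolation from small intestine, but the labels give only intestine, and the segment is not given. Its breeding scheme crossed flox/flox mice with and without villin-cre, which gives WT littermates that carry the flox alleles, but whether the sequenced WT mice came from that cross is not stated. The study describes its RNA-seq replicates as biological and counts them as mice, without mention of pooling, and p-values measure the spread between these libraries.

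Alpha-defensins, called cryptdins in the mouse, are small cationic peptides that kill bacteria. Paneth cells at the crypt base of the small intestine make them as proforms, store them in granules and release them into the crypt lumen, and the protease matrilysin (Mmp7) cuts the proform to the active peptide. The active part is the end of the protein and is held together by disulfide bonds between cysteines. Because the genes arose by repeated duplication, many copies differ by only a few bases, and reads that fit several copies have to be divided between them.

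The cluster held 35 genes with a Defa symbol in this interval, of which 6 fell under the count minimum. Just inside the minimum, Defa-ps10 had 17 counts over the libraries, and just outside it Defa25 and Defa-ps17 had 5 counts each. Defa-ps9 had 1 count, and Defa-ps3, Defa-ps8 and Defa-ps11 had 0, which allows up to 3 counts or 0.0588 to 0.069 CPM (counts scaled to the size of the library) in a library. Members spanned 710 kb from Defa21, the first, to Defa24, the last. All but Defa29 and Defa-ps7 were read from the plus strand, 27 of 29 in all. Only Defa29 overlapped another annotated gene of the table, a small nucleolar RNA on its own strand with 16 counts in all libraries together.

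The members that the results turn on lie as follows on chromosome 8 of GRCm38. The most abundant copies, Defa30 (ENSMUSG00000074444) at 21134642 to 21135598 and Defa24 (ENSMUSG00000064213) at 21734494 to 21735471, are both on the plus strand. Of the copies called below, Defa21 (ENSMUSG00000074447) at 21025545 to 21026516, Defa35 (ENSMUSG00000061845) at 21065038 to 21065996 and Defa22 (ENSMUSG00000074443) at 21162277 to 21163249 are in the first part of the cluster. Farther along are Defa5 (ENSMUSG00000074439) at 21297439 to 21298375, Defa2 (ENSMUSG00000096295) at 21378515 to 21379495 and Defa32 (ENSMUSG00000094818) at 21529032 to 21530012, all on the plus strand like the first 3, and Defa29 (ENSMUSG00000074437) at 21325887 to 21327020 on the minus strand. Copies that were called thus lie among copies that were not, for instance Defa22 between Defa30 and Defa31. Each of these 9 is annotated as protein-coding.

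The ends of the coding sequences show how the copies fall into kinds. Printed below are the ends of Defa24, the most abundant copy, and of Defa22, Defa2, Defa35 and Defa29, taken from the called copies. They are the last 36 codons from GENCODE M21, stop included, with the cysteine codons in capitals.
Defa24: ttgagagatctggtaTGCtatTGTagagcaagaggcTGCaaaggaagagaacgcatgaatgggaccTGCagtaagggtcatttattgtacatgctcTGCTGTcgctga
Defa22: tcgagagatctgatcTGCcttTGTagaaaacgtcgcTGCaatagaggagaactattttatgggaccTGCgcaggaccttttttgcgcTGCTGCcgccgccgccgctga
Defa2: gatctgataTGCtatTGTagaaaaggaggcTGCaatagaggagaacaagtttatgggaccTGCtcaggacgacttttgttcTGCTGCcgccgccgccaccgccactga
Defa35: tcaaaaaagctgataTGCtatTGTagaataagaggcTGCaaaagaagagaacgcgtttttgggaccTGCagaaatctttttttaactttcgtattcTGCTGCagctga
Defa29: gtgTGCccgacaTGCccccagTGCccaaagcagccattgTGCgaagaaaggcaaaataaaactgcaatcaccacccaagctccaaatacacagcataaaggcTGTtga
These lie at chr8:21735270-21735377 (Defa24), chr8:21163048-21163155 (Defa22), chr8:21379295-21379402 (Defa2) and chr8:21065801-21065908 (Defa35) on the plus strand of GRCm38 and at chr8:21325999-21326106 (Defa29) on the minus strand, each within 1 exon. The first 4 carry the 6 cysteine codons of a classical cryptdin, although the bases between them differ. Defa29 is of another kind, with 11 cysteine codons in its whole coding sequence and 5 in the stretch shown. Defa29 belongs to the cryptdin-related sequence peptides, whose active part is richer in cysteine. Among the 21 coding copies there were 13 different endings of this length. Defa2, Defa20, Defa32 and Defa33 shared one ending, as did Defa35, Defa5 and Defa34. Defa23 shared its ending with Defa31, Defa3 with Defa17, and Defa36 with Defa37.

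Whole transcripts were compared as well. Members were joined when their GENCODE transcripts matched at 95% or more of aligned bases over at least 80% of the shorter transcript, which put 27 members into 7 groups and left Defa-ps5 and Defa-ps10 alone. Each group is named here after its most abundant copy. The Defa24 group held Defa23, Defa30, Defa31, Defa3, Defa17 and Defa24. The Defa22 group held Defa21 and Defa22, the Defa20 group Defa2, Defa33, Defa20 and Defa32, and the Defa37 group Defa35, Defa5, Defa36, Defa37 and Defa34. Defa29 was joined only with the pseudogene Defa-ps7. Defa26 was joined with Defa-ps4 and Defa-ps16, and Defa-ps6 with Defa27, Defa28, Defa-ps18 and Defa-ps1. Between groups the transcripts were less alike: Defa24 matched Defa22 at 84.1% of aligned bases, Defa2 at 86.2%, Defa35 at 83.9% and Defa29 at 78.1%. Copies of a group were mostly not neighbours on the chromosome, since only 2 of 28 neighbouring pairs of members, Defa2 with Defa33 and Defa20 with Defa32, belonged to the same group.

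Library depth was nearly even, as the WT libraries totalled 47737448 and 49369315 counts and the Vil-CREPTKO libraries 47241049 and 48266388 counts. The deleted gene Rprd1b was at 60.5 and 61.6 CPM in WT and at 26.3 and 29 CPM in Vil-CREPTKO, a log2 fold change (log2FC) of -1.14 ± 0.12 (SE) and an edgeR quasi-likelihood adjusted p of 0.00411, so that every library matched its label. WT replicate 2 had 863 CPM of Xist and no count of 4 Y-linked genes, whereas the other 3 libraries had under 1 CPM of Xist, so sex differed within the WT group. The libraries held Paneth cell products, with 2495 to 4048 CPM of Lyz1 (lysozyme) and 1343 to 2161 CPM of Itln1. Genes of the proximal small intestine were present, with 203 to 257 CPM of Gata4. Fabp6 and Slc10a2 of the ileum stayed at or under 1.31 CPM. The list of 4 proximal genes summed to 601 and 762 CPM in WT and to 763 and 835 CPM in Vil-CREPTKO. Of these genes, 3 had a log2FC above 0. The 3 colon genes tested summed to 15.2 and 35.4 CPM in WT and to 48.0 and 37.3 CPM in Vil-CREPTKO. In both lists the Vil-CREPTKO libraries were above the WT libraries, by small margins, and 0 genes passed the adjusted p. The list of 4 distal genes, mostly Cubn, summed to 77.0 and 172 CPM in WT and to 61.9 and 27.7 CPM in Vil-CREPTKO, without overlap. Cubn itself was at 58.2 and 151 CPM in WT and at 43.9 and 13.9 CPM in Vil-CREPTKO and did not pass (log2FC -1.86 ± 0.53 SE, adjusted p 0.131 in edgeR).

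The family made up 1.12% to 1.72% of all counts in a library, and its total differed less between genotypes than between the WT libraries. The 29 members together held 1.12% and 1.64% of all counts in WT replicates 1 and 2, and 1.72% and 1.67% in those of Vil-CREPTKO. After TMM scaling, the family total was 10483 and 16418 CPM in WT and 18645 and 16446 CPM in Vil-CREPTKO. The Vil-CREPTKO libraries were both above the WT libraries, but Vil-CREPTKO replicate 2 exceeded WT replicate 2 by a small margin, and WT replicate 1 stood far below the other 3. Mean totals were 13451 ± 4197 CPM for WT and 17546 ± 1555 CPM for Vil-CREPTKO (SD, n = 2 each), a ratio of 1.30 that became 1.07 without WT replicate 1 and 1.67 without WT replicate 2. The total is given as a description, without a test. In crypt RNA, a change in the number of Paneth cells and a change in RNA per Paneth cell cannot be told apart.

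Defa24 and Defa30, both cryptdins of the Defa24 group, dominated the family in every library. Defa24 was at 6142 and 9751 CPM in WT and 10116 and 9472 CPM in Vil-CREPTKO. It held 58.6% of the family's counts in WT replicate 1 (95% Wilson interval 58.5% to 58.7%), 59.4% in WT replicate 2, and 54.3% and 57.6% in the Vil-CREPTKO libraries. Counted together with the neighbouring genes that RefSeq names Defa38 to Defa43, Defa24 would hold 44.2% to 46.6%, with overlapping genotypes. The intervals cover counting error only and are far narrower than the spread between libraries. Defa30 was at 2192 and 4497 CPM in WT and 4205 and 3939 CPM in Vil-CREPTKO, which was 20.9% to 27.4% of the family. WT replicate 1 was the lowest library for both copies, WT replicate 2 lay among or above the Vil-CREPTKO libraries, and neither difference passed the test (log2FC 0.30 ± 0.33 SE and adjusted p 0.754 for Defa24, 0.28 ± 0.34 SE and adjusted p 0.784 for Defa30, in edgeR).

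Levels of different copies were compared per kilobase of exon. In WT, Defa24 stood at 18965 ± 6091 CPM per kb (SD, n = 2) and Defa30 at 8403 ± 4097, and their libraries did not overlap. Among the members, next came Defa17 at 1283 ± 175 and Defa23 at 1009 ± 433 CPM per kb, which overlapped with each other. Below them, 7 copies from Defa26 (343 ± 84.4) through Defa21, Defa20, Defa3, Defa37 and Defa22 to Defa34 (264 ± 28.7 CPM per kb) followed, with each overlapping the next. The lowest coding copy was Defa33 at 0.540 ± 0.113 CPM per kb. Outside the rule, the genes that RefSeq names Defa39 (4364 ± 997 CPM per kb) and Defa38 (3747 ± 1369 CPM per kb) would stand between Defa30 and Defa17. Of the 28 adjacent steps among the members, 15 were wider than the ranges of the libraries.

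The order was different in Vil-CREPTKO below the leading pair. Defa24 (23375 ± 1086 CPM per kb, SD, n = 2) and Defa30 (10232 ± 472) again stood first and second. Defa22 went from rank 10 in WT to rank 3, at 1352 ± 850 CPM per kb, and Defa21 took rank 4 at 1189 ± 500, with Defa22, Defa21 and Defa23 overlapping each other stepwise. Defa29 moved from rank 12 to rank 8 at 827 ± 43.7 CPM per kb. In the other direction, Defa17 went from rank 3 to rank 6 and Defa26 from rank 5 to rank 14, at 204 ± 0.567 CPM per kb.

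**Figure D1:**
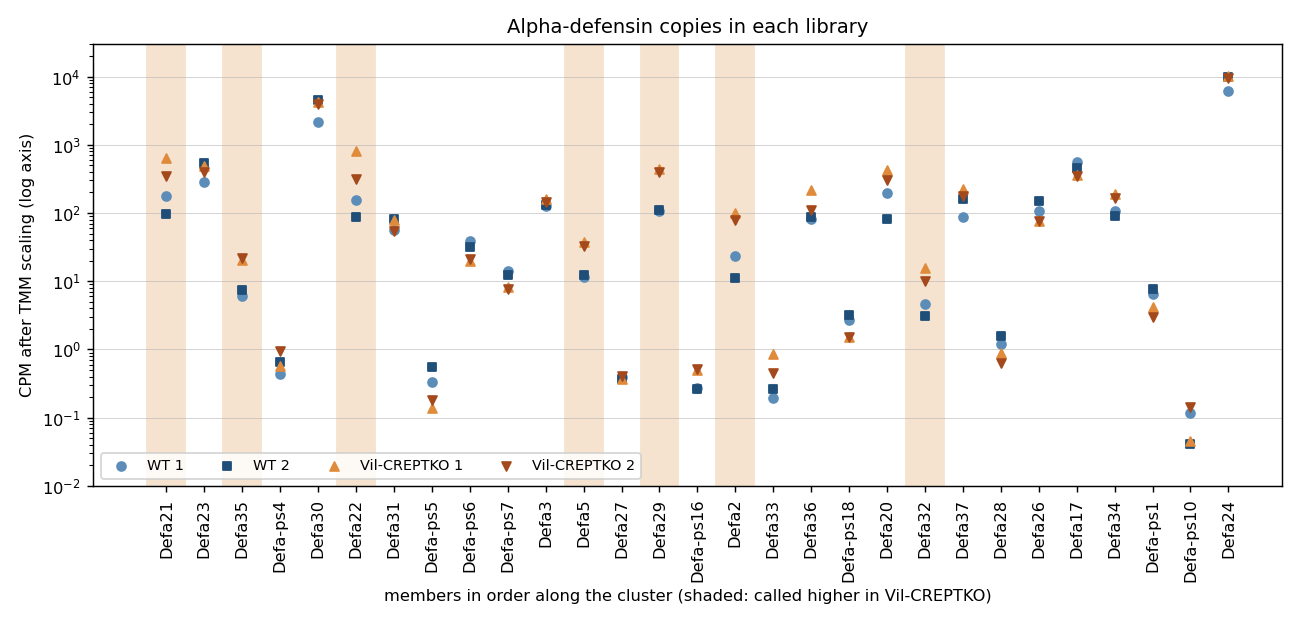
CPM after TMM scaling (log axis) of the 29 members in their order along the cluster, with 1 point per library. Shaded columns mark the 7 members called higher in Vil-CREPTKO, where both Vil-CREPTKO points lie above both WT points, while Defa24 and Defa30 lead in all 4 libraries.

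Loss of CREPT was then compared with WT for each copy, in a fit over all genes. A gene was called when its Benjamini-Hochberg adjusted p was under 0.05 and its log2 fold change was over 1 or under -1. The filter on low counts kept 28 of the 29 members and left out Defa-ps10. Of the 28 members, 7 were called higher in Vil-CREPTKO, namely Defa2, Defa5, Defa21, Defa22, Defa29, Defa32 and Defa35. Over all 17504 genes tested, 0.297% were called higher, against 25% of the members. No member was called lower (0 of 28), against 1.34% of all genes. At an unadjusted edgeR p under 0.05, 6 of the 28 members were lower and 12 were higher. Over all 17504 genes tested, 2495 had an unadjusted p under 0.05, both directions together. The members share reads and position, so they are not independent of one another.

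At any fold change, 8 members were higher with an adjusted p under 0.05, against 0.423% of all genes, and 1 member, Defa-ps6, was lower, against 2.29%. Both Vil-CREPTKO libraries lay above both WT libraries in 14 of the 28 members, where the same held for 21% of all genes. Both lay below in 8 members, against 24.2% of all genes. The median log2 fold change of the 28 members was 0.39, beside -0.0060 over all genes tested, and it was 0.21 without WT replicate 1 and 0.76 without WT replicate 2. By biotype, 17 of 21 coding copies and 2 of 7 tested pseudogenes had a log2 fold change above 0.

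The copies that rose came from 4 of the groups. In the Defa22 group both copies rose. Defa22 was at 153 and 87.5 CPM in WT and at 819 and 315 CPM in Vil-CREPTKO, and Defa21 at 175 and 98.0 CPM in WT and 645 and 349 CPM in Vil-CREPTKO. For each copy the Vil-CREPTKO libraries were both above the WT libraries, and Vil-CREPTKO replicate 1 was the highest. The log2 fold change was 2.24 (± 0.43 SE, with 0.0316 as the adjusted p in edgeR) for Defa22 and 1.86 (± 0.34 SE, with 0.0259 as the adjusted p in edgeR) for Defa21. With Vil-CREPTKO replicate 1 left out, these were 1.38 for Defa22 and 1.35 for Defa21.

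In the Defa20 group, Defa2 had the largest log2 fold change of all members tested. Its level was 23.1 and 11.3 CPM in WT and 99.95 and 77.7 CPM in Vil-CREPTKO (log2FC 2.37 ± 0.29 SE, adjusted p 0.00618 in edgeR), with a log2 fold change of 2.98 when WT replicate 1 was left out. Defa32 was lower in abundance, at 4.60 and 3.11 CPM in WT and 15.8 and 10.1 CPM in Vil-CREPTKO (log2FC 1.74 ± 0.28 SE, adjusted p 0.0172 in edgeR). In both copies the groups did not overlap. Defa20, the most abundant of this group, was at 194 and 80.7 CPM in WT and 429 and 309 CPM in Vil-CREPTKO. Its log2 fold change was 1.42 (SE 0.36) with an edgeR adjusted p of 0.085, and it was called in 5 of 11 alternatives. Its level in WT replicate 2 was 0.416 times that in WT replicate 1. Defa33 had 10 counts in WT replicate 1 and at most 0.851 CPM in any library, and did not pass (log2FC 1.48 ± 0.63 SE, adjusted p 0.326 in edgeR).

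In the Defa37 group, the copies that were called were the least abundant. Defa35 was at 6.07 and 7.40 CPM in WT and at 20.7 and 21.7 CPM in Vil-CREPTKO (log2FC 1.65 ± 0.17 SE, adjusted p 0.00375 in edgeR). Defa5 was at 11.5 and 12.3 CPM in WT and at 37.1 and 33.1 CPM in Vil-CREPTKO (log2FC 1.56 ± 0.14 SE, adjusted p 0.00221 in edgeR). Replicates of both copies lay close together and the groups stood apart. Defa34, whose coding end is identical to that of Defa35 and Defa5, was at 107 and 91.3 CPM in WT and at 187 and 163 CPM in Vil-CREPTKO. It had a log2 fold change of 0.82 (± 0.14 SE, with 0.0232 as the adjusted p in edgeR), past the adjusted p and under the fold threshold, and without WT replicate 2 the adjusted p was 0.0914. Defa36 (log2FC 0.96 ± 0.27 SE, adjusted p 0.128 in edgeR) and Defa37 (log2FC 0.71 ± 0.26 SE, adjusted p 0.241 in edgeR) did not pass, and Defa37 was at 86.6 and 160 CPM in WT and 222 and 180 CPM in Vil-CREPTKO.

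Defa29 had the smallest p-value of the members tested. It was at 106 and 109 CPM in WT and at 436 and 404 CPM in Vil-CREPTKO, with replicates of each genotype nearly equal. Its log2 fold change was 1.97 (± 0.15 SE, with 0.00108 as the adjusted p in edgeR), or 3.91 times the WT mean. Among the 7 called copies, Defa29 is also the one whose transcript shares least with other genes, as given below. The pseudogene Defa-ps7, joined with it by sequence, was at 14.1 and 12.4 CPM in WT and at 8.28 and 7.76 CPM in Vil-CREPTKO (log2FC -0.72 ± 0.17 SE, adjusted p 0.0733 in edgeR).

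**Figure D2:**
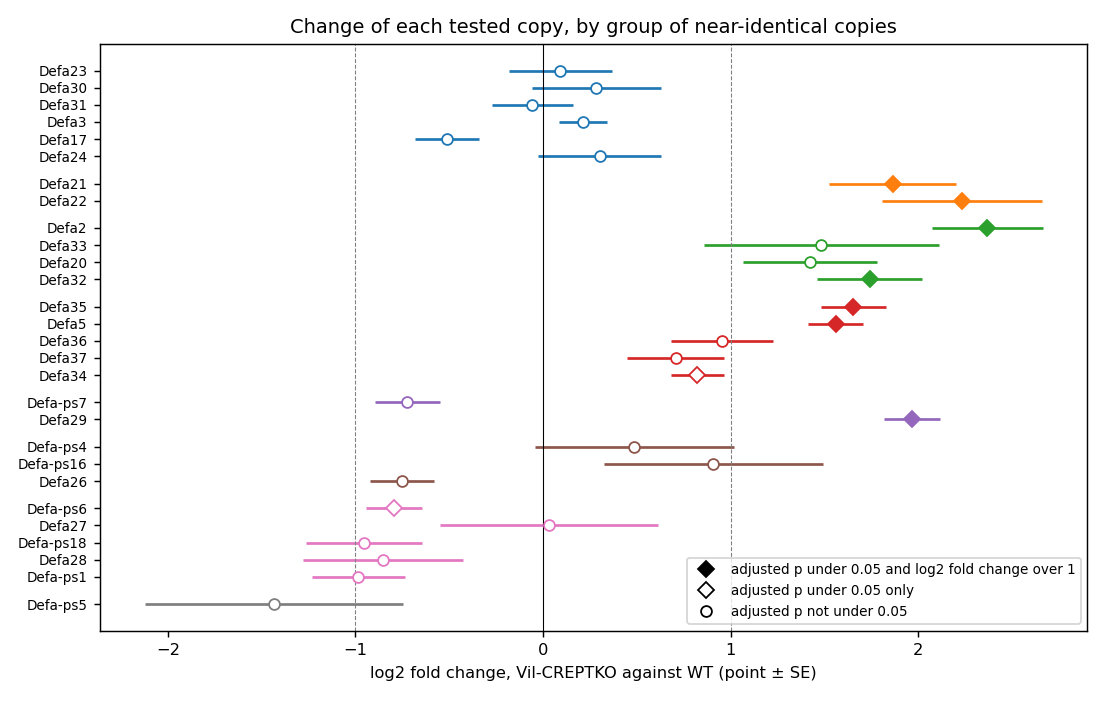
Log2 fold change of Vil-CREPTKO against WT with its SE for the 28 members tested, coloured and spaced by group of near-identical copies. Filled diamonds are the 7 called copies; the members of the Defa24 group lie between -0.51 and 0.30, those of the Defa22, Defa20 and Defa37 groups between 0.71 and 2.37.

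None of the 4 other members of the Defa24 group passed the test. Defa23 was at 289 and 541 CPM in WT and at 485 and 399 CPM in Vil-CREPTKO, so that the WT libraries enclosed the Vil-CREPTKO libraries (log2FC 0.09 ± 0.27 SE, adjusted p 0.925 in edgeR). Defa3 was at 128 and 132 CPM in WT and at 159 and 143 CPM in Vil-CREPTKO (log2FC 0.21 ± 0.13 SE, adjusted p 0.531 in edgeR). Defa17 was at 558 and 460 CPM in WT and at 360 and 354 CPM in Vil-CREPTKO, where the groups did not overlap but the test was not passed (log2FC -0.51 ± 0.17 SE, adjusted p 0.193 in edgeR). Defa17 and Defa3 have the same coding end and transcripts that match at 99.7% of aligned bases, and their fold changes had opposite signs. Little of either transcript is its own, as given below, so the division of counts between them is uncertain. Defa31 was at 53.9 to 82.1 CPM with overlapping groups.

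In the remaining groups, Defa-ps6 fell at any fold change and no other member passed the adjusted p. Defa26 was at 105 and 150 CPM in WT and at 75.6 and 75.9 CPM in Vil-CREPTKO (log2FC -0.75 ± 0.17 SE, adjusted p 0.0595 in edgeR). The pseudogene with the highest level, Defa-ps6, was at 39.5 and 31.9 CPM in WT and at 19.9 and 21.2 CPM in Vil-CREPTKO (log2FC -0.80 ± 0.15 SE, adjusted p 0.0301 in edgeR). In both, the Vil-CREPTKO libraries were below the WT libraries. Of the 7 pseudogenes tested, 5 had a log2 fold change below 0 and Defa-ps6 alone passed the adjusted p. Defa-ps6 lost it in 3 of 11 alternative fits, at 0.0531 with upper-quartile scaling, 0.0843 with WT replicate 1 left out and 0.0626 when Vil-CREPTKO replicate 1 was left out. The 8 pseudogenes together summed to 63.9 and 56.6 CPM in WT and to 35.1 and 35.3 CPM in Vil-CREPTKO. Defa-ps5 had the lowest log2 fold change, -1.43 (± 0.69 SE, with 0.399 as the adjusted p in edgeR), on 6 to 27 counts in a library. Defa-ps10, not tested, had 2 to 7 counts in a library.

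The make-up of the family, described here without a test, differed between the genotypes while the leading pair held most of it. The Defa24 group held 89.3% and 94.2% of the family's counts in WT and 82.6% and 87.3% in Vil-CREPTKO. The Defa22 group held 3.13% and 1.13% in WT against 7.85% and 4.04% in Vil-CREPTKO. The group of Defa29 held 1.14% and 0.739% in WT against 2.38% and 2.51% in Vil-CREPTKO. In each of these the WT and Vil-CREPTKO libraries did not overlap, and shares do not depend on the scaling between libraries. They do depend on which genes count as the family. With the 6 neighbouring genes that RefSeq names Defa38 to Defa43 added, an alternative chosen after seeing the data, the Defa24 group held 68.9% and 73.9% in WT against 67.3% and 70.6% in Vil-CREPTKO, which overlapped, whereas the Defa22 group (2.42% and 0.887% against 6.39% and 3.26%) and the group of Defa29 (0.883% and 0.580% against 1.94% and 2.03%) still did not. The 7 called copies together were 4.57% and 2.00% of the family in WT and 11.1% and 7.36% in Vil-CREPTKO. They were picked for being higher in Vil-CREPTKO, so the direction of this difference follows from the choice and is no separate result.

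**Figure D3:**
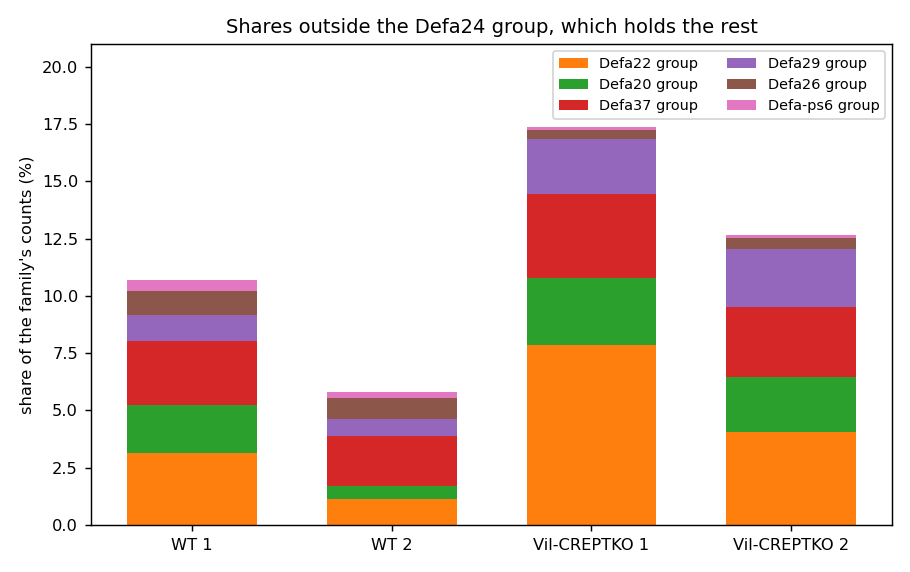
Share of the family's counts (%) held by the 6 groups outside the Defa24 group in each library, stacked from 0. The stack is higher in both Vil-CREPTKO libraries than in either WT library, and the Defa22 segment goes from 3.13% and 1.13% in WT to 7.85% and 4.04%.

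The WT libraries were not alike, and the groups of copies differed between them in opposite directions. From WT replicate 1 to WT replicate 2, the summed CPM of the Defa24 group was 1.65 times as high, that of the Defa22 group 0.565 times and that of the Defa20 group 0.429 times. The Defa29 group was 1.01 times as high. Relative to the Defa24 group, the Defa22 group was at 3.50% in WT replicate 1, 1.20% in WT replicate 2 and 9.50% and 4.62% in Vil-CREPTKO replicates 1 and 2. The ratio in Vil-CREPTKO replicate 2 was thus nearer to WT replicate 1 than to Vil-CREPTKO replicate 1. All 7 copies were also called when any 1 library was left out, WT replicate 2 of the other sex included, but such a fit has 1 library in an arm, which is assumed to vary like the other group, so these calls say little about stability.

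Near-identical copies share reads, so the share of each transcript that is its own was measured. Windows of 50 bases were compared with the transcripts of all other GENCODE genes on both strands. Defa24 had 71.9% of its windows to itself, Defa29 56.6%, Defa30 47.6%, Defa35 40.1%, Defa21 27.1% and Defa22 25.1%. Defa5 had 0.306%, and Defa2, Defa20, Defa31, Defa32, Defa33 and Defa37 had 0. With windows of 100 bases, Defa2 still had 0 and Defa5 had 11.9%. With windows of 50 bases, Defa36 had 4.58%, Defa23 5.25%, Defa3 7.76% and Defa17 8.05%. The division of counts among Defa2, Defa20, Defa32 and Defa33, and between Defa5 and Defa34, therefore rested on the authors' assignment of shared reads. The same holds largely between Defa23 and Defa31, between Defa3 and Defa17 and between Defa36 and Defa37. Single values of all these copies, their ranks included, are uncertain.

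**Figure D4:**
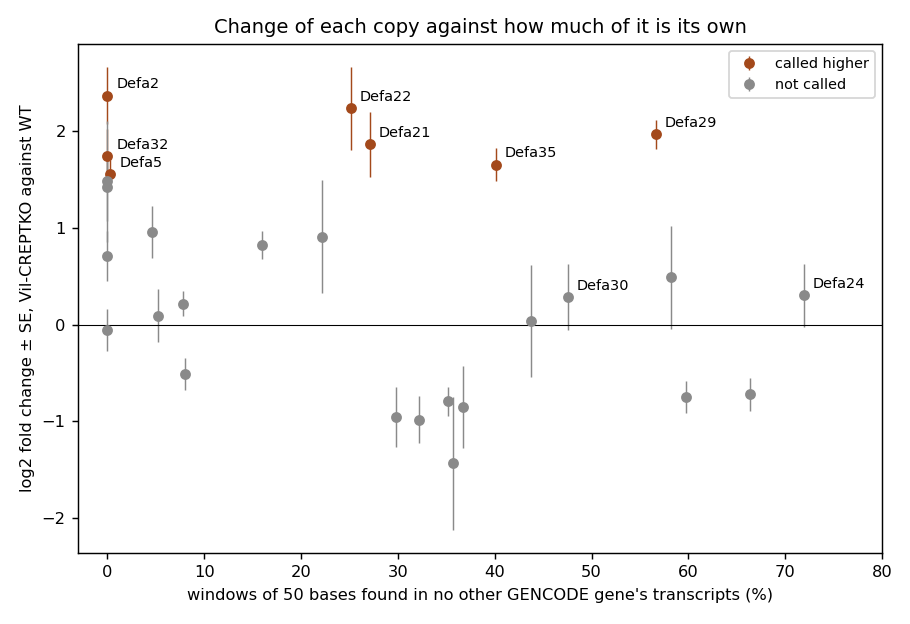
Log2 fold change with its SE of the 28 members tested against the percentage of 50-base windows found in no other GENCODE gene's transcripts. Called copies lie between Defa2 at 0% and Defa29 at 56.6%, and Defa24 at 71.9% is near 0 on the log2 scale.

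To set aside the division of reads within a group, the counts of each group were summed and the fit over all genes was repeated. Any reads shared with genes outside a group, the neighbours that RefSeq names Defa38 to Defa43 included, stayed divided as deposited. This alternative was chosen after seeing the data. The Defa22 group was at 328 and 185 CPM in WT and 1464 and 664 CPM in Vil-CREPTKO and was called (log2FC 2.05 ± 0.39 SE, adjusted p 0.0312 in edgeR). Defa29 with Defa-ps7 was at 120 and 121 CPM in WT and 444 and 412 CPM in Vil-CREPTKO and was called as well (log2FC 1.83 ± 0.15 SE, adjusted p 0.00136 in edgeR). The Defa20 group, at 222 and 95.3 CPM in WT and 545 and 397 CPM in Vil-CREPTKO, had a log2 fold change of 1.57 (± 0.35 SE, with 0.0563 as the adjusted p in edgeR) and did not pass. The Defa37 group was at 293 and 357 CPM in WT and 686 and 507 CPM in Vil-CREPTKO (log2FC 0.88 ± 0.20 SE, adjusted p 0.0651 in edgeR). The summed Defa24 group had 0.26 (± 0.36 SE, with 0.815 as the adjusted p in edgeR), and the Defa-ps6 group fell at any fold change (log2FC -0.82 ± 0.13 SE, adjusted p 0.0126 in edgeR). So 2 groups were called higher in place of 7 copies, and the sums of the Defa20 and Defa37 groups were not called. These 2 sums consist mostly of other copies. Over the libraries, Defa20 had 47680 counts beside 9894 of Defa2 and 1567 of Defa32. Defa35 had 2639 counts and Defa5 4429, beside 23300 to 30781 for Defa36, Defa34 and Defa37. The sums therefore say little about the calls of Defa2, Defa32, Defa35 and Defa5.

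Promoters were compared between the groups of copies. RefSeq (GRCm38.p6) gave a promoter for 12 members by symbol, the 250 bases before and 50 after the start. Defa24 and, of the called copies, Defa5 and Defa29 were not among them. The 200 bases before the start are printed for Defa22, which rose, and for Defa23 and Defa30, which did not pass the test. Capitals mark TATAAA and TCAAAG, the reverse complement of CTTTGA, which is among the core letters that TCF factors, the DNA-binding partners of β-catenin, bind.
Defa22: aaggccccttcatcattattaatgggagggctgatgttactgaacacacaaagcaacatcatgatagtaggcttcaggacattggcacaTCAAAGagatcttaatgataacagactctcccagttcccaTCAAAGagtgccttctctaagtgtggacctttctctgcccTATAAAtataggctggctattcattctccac
Defa23: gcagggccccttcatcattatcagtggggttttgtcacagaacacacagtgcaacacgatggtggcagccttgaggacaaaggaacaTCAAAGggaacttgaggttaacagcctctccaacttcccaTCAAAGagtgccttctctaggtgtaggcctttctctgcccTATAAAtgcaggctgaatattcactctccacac
Defa30: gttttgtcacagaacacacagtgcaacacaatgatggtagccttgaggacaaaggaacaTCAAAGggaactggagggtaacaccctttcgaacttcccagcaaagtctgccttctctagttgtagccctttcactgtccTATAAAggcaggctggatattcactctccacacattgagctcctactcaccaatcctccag
They lie at chr8:21162077-21162276, chr8:21054840-21055039 and chr8:21134450-21134649, all on the plus strand. TATAAA on either strand was found in 11 of the 12 promoters and in 13.6% of all 32851 RefSeq promoters of this length. CTTTGA on either strand was found in 12 of 12 and in 16.0% of all, and CTTTGT in 9 of 12 and in 18.7%. The letters TCAAAG stood 2 times before Defa21, Defa22, Defa2, Defa20, Defa32 and Defa35, and also 2 times before Defa23 and Defa31, which did not pass the test. They stood 1 time before Defa30, Defa36, Defa37 and Defa28. Promoters were identical between Defa21 and Defa22, between Defa2 and Defa20, between Defa23 and Defa31 and between Defa36 and Defa37. That of Defa32 matched those of Defa2 and Defa20 at 100% of 298 aligned bases. Those of Defa21 and Defa2 matched at 97.7% of aligned bases. The 12 promoters are thus partly copies of one another, and the counts above do not stand for 12 separate sequences. A match is a description of letters and says nothing about a factor's binding.

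Genes that process defensins or set up Paneth cells were examined as a list of 20. All 20 were tested, and 1 was past an adjusted p of 0.05, Fgfr3, a fibroblast growth factor receptor. Fgfr3 was at 31.1 and 28.2 CPM in WT and at 15.8 and 19.1 CPM in Vil-CREPTKO (log2FC -0.77 ± 0.15 SE, adjusted p 0.0389 in edgeR), and it lost the adjusted p in 3 of 11 alternative fits (upper-quartile scaling, and leaving out replicate 1 of either genotype). Mmp7, the protease that activates the proforms, was at 93.2 and 147 CPM in WT and at 154 and 156 CPM in Vil-CREPTKO (log2FC 0.37 ± 0.20 SE, adjusted p 0.461 in edgeR). Atoh1, the factor that sets the secretory lineage, was at 33.5 and 31.2 CPM in WT and at 30.4 and 32.2 CPM in Vil-CREPTKO (log2FC -0.05 ± 0.13 SE, adjusted p 0.918 in edgeR). The median log2 fold change of the list was -0.15, beside -0.0060 over all genes, and 5 of 20 were above 0. Thus 0 list genes were higher and 1 was lower past the adjusted p, against 0.423% and 2.29% of all genes.

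Other Paneth cell products did not move as one with the called copies. Of 10 such genes, 1 passed the adjusted p, Pnliprp2, a lipase, at 180 and 366 CPM in WT and 64.7 and 89.2 CPM in Vil-CREPTKO (log2FC -1.83 ± 0.31 SE, adjusted p 0.0206 in edgeR). Lyz1 was at 2958 and 2670 CPM in WT and 2495 and 4048 CPM in Vil-CREPTKO (log2FC 0.22 ± 0.29 SE, adjusted p 0.806 in edgeR). The 10 genes summed to 6939 and 8458 CPM in WT and to 7320 and 8994 CPM in Vil-CREPTKO, and their median log2 fold change was -0.02, with 5 of 10 above 0. Reg3g, a secreted lectin that kills bacteria, followed the same order of libraries as Defa22, at 414 and 204 CPM in WT and 1241 and 690 CPM in Vil-CREPTKO (log2FC 1.64 ± 0.37 SE, adjusted p 0.0577 in edgeR).

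Markers of other cells in the preparation were set beside these changes. The 4 pancreas genes summed to 18.6 and 14.0 CPM in WT and to 39.5 and 24.4 CPM in Vil-CREPTKO, in the same order of libraries as Defa22, and none passed the adjusted p. The 6 enterocyte genes summed to 9917 and 13304 CPM in WT and to 17516 and 10682 CPM in Vil-CREPTKO, the 5 goblet cell genes to 7333 and 8046 against 6286 and 6328 CPM, and the 4 stem cell genes to 1842 and 1443 against 1205 and 1719 CPM. Immune genes summed to 62.5 to 111 CPM and the 3 stromal genes tested to 1.59 to 11.6 CPM, highest in Vil-CREPTKO replicate 1. The part of these cells and of sex in the differences between copies was not tested. Nor was that of the intestinal segment, whose proximal, distal and colon genes are given above.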

How the data were processed

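Crypt RNA-seq of 2 WT and 2 Vil-CREPTKO libraries was used, with groups and replicate numbers from the sample titles. The values were read counts per gene, deposited by the authors as whole numbers with 1 column per library. The submitters' processing notes name CASAVA 1.8, Bowtie2, RSEM and GRCm38.p6. RSEM divides reads that fit several transcripts by estimated abundance, but whether the whole numbers are rounded RSEM estimates, the read length and the strand setting are not given in the sources used here. The methods name a BGISEQ sequencer, while the labels name Illumina library protocols. Of 53845 rows, 53360 matched GENCODE M21, and the others stayed in the fit.

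Counts were fitted in R 4.3.3 with edgeR 4.0.16 (filterByExpr, TMM scaling, quasi-likelihood test with the group as the only term, two-sided, Benjamini-Hochberg adjustment over 17504 genes). SE was the absolute log2 fold change over the root of the test's F. CPM used TMM-scaled library sizes. Shares were percentages of the members' summed counts, with 95% Wilson intervals (scipy 1.17.1). The common biological coefficient of variation was 0.188. Replicate libraries differed beyond sampling noise (chi-square of 49.8 per gene in WT and 70.1 in Vil-CREPTKO, over genes with 20 counts or more in the pair), so all 4 were kept. Transcripts were aligned with Biopython 1.88. The fit was tested on counts simulated from its own means and dispersions. These held no shared reads and no difference of sex, so that test cannot show how either affects the fit.

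Members named with values were the 10 with the highest mean CPM, all with an adjusted p under 0.05, those with the highest and lowest log2 fold change, the first and last of the cluster, those nearest to the count minimum and the highest pseudogene, and others, chosen after their values were seen, where their group is described. The members and lists were chosen with earlier results of these data known. Alternatives were RLE, upper-quartile and library-size scaling, DESeq2 1.42.0, no filter and a filter of 10 counts in every library, a replicate block, no fold change threshold, each library left out, other count minimums for the rule, copies joined by sequence, and neighbouring genes added to the shares.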

Additional observations from a re-analysis of the deposited data

How the results depend on the processing

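The fits that leave out a library have 1 library in an arm, which is assumed to vary like the other group. All 7 called members were called under each of the 11 alternative fits to single copies, and 7 to 9 members were called higher. Defa20 was added by library-size scaling (log2 fold change 1.30), no filter (1.43), the replicate block (1.54), and leaving out WT replicate 1 or Vil-CREPTKO replicate 2, Defa37 without WT replicate 2, and Defa36 without Vil-CREPTKO replicate 2. Short of the fold threshold, Defa17 passed the adjusted p with DESeq2 (log2FC -0.495, adjusted p 0.0362). Defa37 passed it with DESeq2 (log2FC 0.72, adjusted p 0.0483) and in edgeR without a filter (log2FC 0.71, adjusted p 0.00222). With copies joined, 2 of 8 groups tested were called in place of 7 copies. Members called lower were 0, and 1 under library-size scaling (Defa-ps1), 1 at any fold change (Defa-ps6) and 0 to 1 with a library left out (Defa-ps1 without Vil-CREPTKO replicate 1). With a library left out, the median log2 fold change of the members ranged from 0.21 to 0.76, and Defa30 (range -0.14 to 0.89, negative without WT replicate 1) and Defa23 (range -0.29 to 0.62, negative without WT replicate 1 and, at -0.06, without Vil-CREPTKO replicate 1) changed sign, and the cause was not tested.

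Over all genes, 235 were called lower and 52 higher. The first became 379 under library-size scaling, 450 without a filter and 400 at any fold change, and ranged from 225 to 308 with a library left out. The second became 163 without a filter and 87 with DESeq2, and ranged from 62 to 135 with a library left out. Among the 20 list genes, those lower past the adjusted p were 1 in the main result, 0 under upper-quartile scaling, 2 under library-size scaling, 3 without a filter and 2 with DESeq2, and 0 to 2 with a library left out. Xbp1 and Sox9 were the genes added.

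The replicate numbers are shared between the groups but not stated to pair the libraries. The correlation of the difference between replicates 1 and 2 across the groups was 0.028, and the replicate block left 67 genes called higher and 269 lower, and 8 members called higher. Joining copies by RefSeq protein identity was planned but not run, since no RefSeq protein sequences were available, and transcript identity took its place. Depth limits the scarce members, such as Defa-ps5 with 6 to 27 counts in a library, and the division of shared reads limits the near-identical copies.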

Other observations

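In the same interval lie 6 genes that GENCODE M21 lists under other symbols and RefSeq (GRCm38.p6) names Defa38 to Defa43. They were outside the rule and were looked at after the members' values were seen. AY761184, which RefSeq names Defa39, was at 1841 and 2550 CPM in WT and at 2587 and 2407 CPM in Vil-CREPTKO (log2FC 0.19 ± 0.25 SE, adjusted p 0.808 in edgeR). Gm14851 (Defa38) was at 975 and 1655 CPM in WT and at 1372 and 1231 CPM in Vil-CREPTKO (log2FC -0.02 ± 0.27 SE, adjusted p 0.99 in edgeR). These 2 genes were more abundant than any member apart from Defa24 and Defa30, and their groups overlapped. Gm15292 (Defa40) was at 87.0 and 100.3 CPM in WT and at 55.9 and 49.96 CPM in Vil-CREPTKO, with an adjusted p past 0.05 and a fold change short of the threshold (log2FC -0.82 ± 0.13 SE, adjusted p 0.0136 in edgeR). Gm15293 (Defa41) was at 40.9 and 28.5 CPM in WT and at 87.3 and 34.1 CPM in Vil-CREPTKO (log2FC 0.81 ± 0.37 SE, adjusted p 0.369 in edgeR). Gm7849 (Defa42, -0.02) and Gm7861 (Defa43, 0.22) did not pass either. So 0 of these 6 genes were called.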
